A study of Rattus norvegicus with 20 samples.

Results

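Neurexins, neuroligins and gephyrin are proteins that join and anchor both sides of a synapse, and their transcripts were followed here through rat ventral hippocampus and a synaptic fraction made from it. Members were the genes Nrxn2, Nrxn3, Nlgn1, Nlgn2, Nlgn3 and Gphn, chosen by symbol: a probe set counted when one of these was its only gene symbol, and of several probe sets the brightest on average (20 arrays) was used. All 6 members were found among the 22093 genes that have a probe set of their own, and all 6 lay among the 15465 genes that were bright enough to be tested. They have 7 probe sets in all, since Nrxn3 has a dim second one.

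Neurexins sit on the presynaptic membrane and reach across the cleft to bind neuroligins on the postsynaptic side. Of the neuroligins, neuroligin-1 is known for excitatory synapses, neuroligin-2 for inhibitory synapses, and neuroligin-3 for both. Gephyrin is a cytoplasmic scaffold that holds GABA-A and glycine receptors at inhibitory synapses and binds the tail of neuroligin-2. It also has an enzymatic role, in the synthesis of the molybdenum cofactor.

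Male Sprague-Dawley rats aged 2 months received an injection into the ventral hippocampus on both sides, with 11 to 13 animals per condition. The mimic rats received 200 pmol of a synthetic mimic of the microRNA miR-17-5p in 1.5 µl, and the control rats a scrambled small RNA, so both groups had surgery and a small RNA. RNA was taken from synaptoneurosomes, a preparation of pinched-off synaptic endings that often keep a piece of the postsynaptic side, and from the whole homogenate. The 20 arrays formed 4 groups of 5: synaptoneurosome mimic, synaptoneurosome control, homogenate mimic and homogenate control. Whether each array is a different animal, and when after injection tissue was taken, is not stated, so the p-values measure the spread between these arrays, which may in part be technical.

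The sequence that the mimic copies is shown because it names the treatment, and the other rat microRNAs with the same seed show which family it imitates. Capitals mark the seed, bases 2 to 8, by which a microRNA finds its targets. The sequences are RefSeq's, build GRCr8, with miR-17-5p at chr15:98587861-98587883 on the plus strand and an identical copy on the X chromosome.
rno-miR-17-5p: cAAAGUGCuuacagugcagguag
rno-miR-20a-5p: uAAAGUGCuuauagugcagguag
rno-miR-20b-5p: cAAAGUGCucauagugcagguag
rno-miR-93-5p: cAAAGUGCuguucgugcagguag
rno-miR-106b-5p: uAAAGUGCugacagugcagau

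Expression values are log2 signals made by the authors with RMA, so a difference of 1 is a doubling of signal. Arrays of the homogenate groups were alike (median SD of a gene 0.11 in mimic and 0.12 in control rats), while synaptoneurosome arrays were more varied (0.17 and 0.21). The arrays synaptoneurosome mimic 5, control 4 and control 5 stood apart from the other 7 synaptoneurosome arrays, with scores of 53, 30.2 and 45.1 on the first principal component of the deviations from group means (52.2% of their variance), against -29.4 to -6.9. Differences of members between the fractions are given with and without these 3 arrays. The arrays were picked from the same data for lying at the extreme of the spread. Leaving them out makes the spread smaller by that choice, so p-values without them are too small and serve as description. Of 5 markers of excitatory neurons, Camk2a, a kinase, lay between 18.46 and 19.06 on all arrays and was higher in synaptoneurosomes (0.27 ± 0.08 in mimic rats and 0.23 ± 0.08 in control rats on the log2 scale, limma adjusted p = 0.0147 and 0.0338). Neurod6, a transcription factor, was lower (-1.52 ± 0.22 and -1.34 ± 0.22, adjusted p = 2.33e-05 and 0.000101). The other markers did not pass: Tbr1 (-0.51 ± 0.25 and -0.54 ± 0.25) and the vesicular glutamate transporters Slc17a7 (-0.09 ± 0.20 and 0.10 ± 0.20) and Slc17a6 (0.74 ± 0.63 and 1.08 ± 0.63). Synaptoneurosomes were depleted of endothelial markers, of which 7 of 7 fell in both treatments, and of RNAs that reside in the nucleus, of which 3 of 3 fell.

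The first question was in which fraction each of these transcripts was more abundant. Neurexin and neuroligin transcripts were higher in synaptoneurosomes than in homogenate, by 1.5-fold to 2.22-fold, while gephyrin was lower, at 0.58-fold in mimic rats and 0.645-fold in control rats. In mimic rats 4 of the 6 members rose (Nrxn2, Nrxn3, Nlgn1 and Nlgn2), Gphn fell and Nlgn3 did not pass. In control rats all 5 neurexins and neuroligins rose and Gphn fell. Among all tested genes limma called 11% higher and 30.8% lower in mimic rats, and 11.8% higher and 28% lower in control rats. That split depends on scaling: 1697 genes were higher and 4756 lower in mimic rats, and 1818 and 4332 in control rats, but 2076 and 2934, and 2420 and 2469, after quantile scaling. The median difference of the members was 0.71 in mimic rats and 0.87 in control rats, against -0.08 and -0.06 over all tested genes. Tested genes reach down to a log2 mean of 4.97, far dimmer than the members, and differences of dim transcripts are understated. Shares of all genes given here and below are not matched for brightness.

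**Figure D1:**
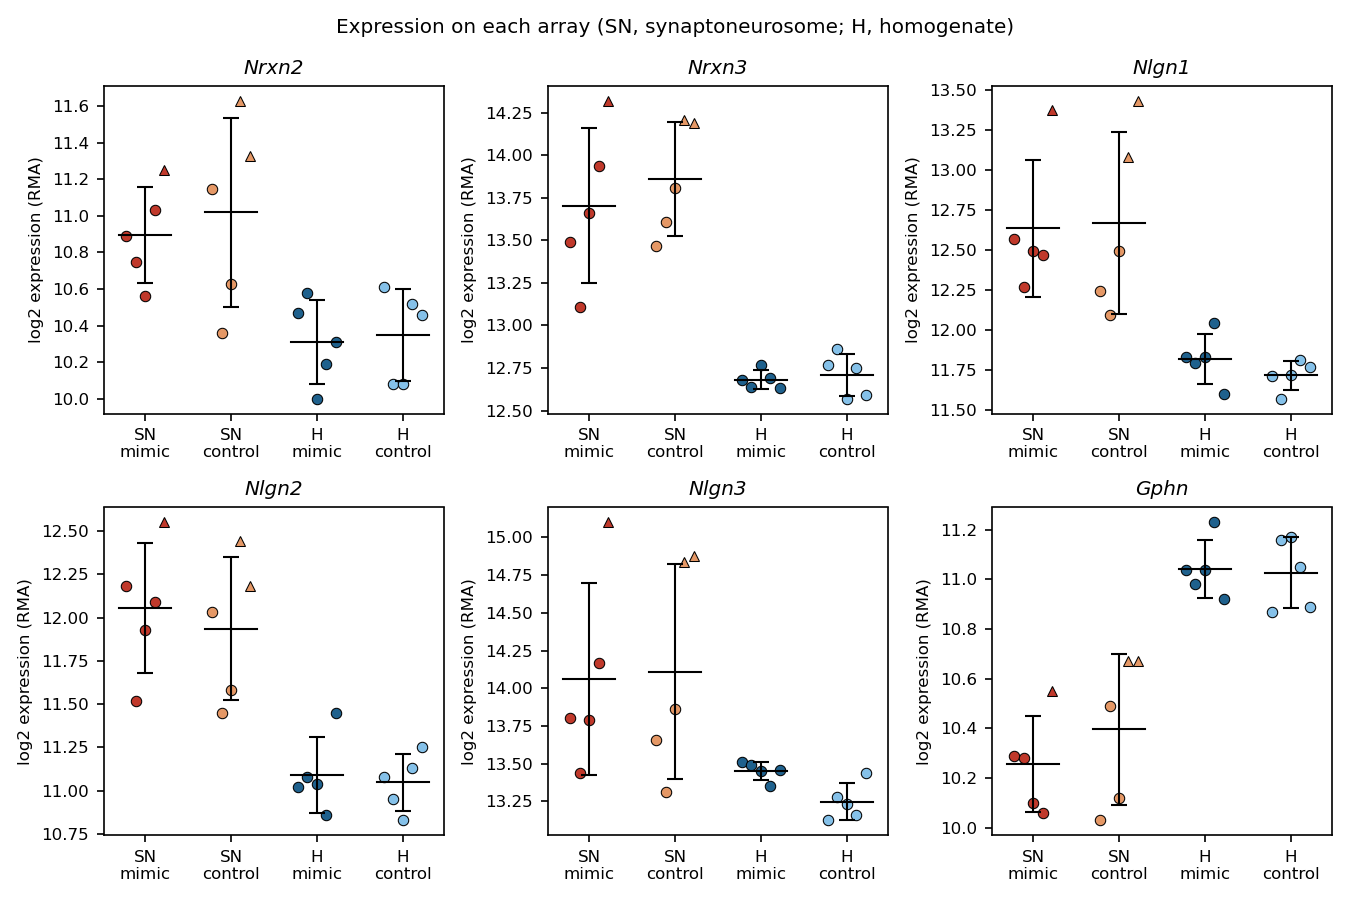
Log2 expression of each member (y axis) on every array, by group (x axis); bars are the mean and SD of 5 arrays, and triangles are the 3 synaptoneurosome arrays that stood apart. Synaptoneurosome arrays lie above homogenate for Nrxn3, Nlgn1 and Nlgn2, above it with overlap for Nrxn2 and Nlgn3, and below it for Gphn, and the triangles are the highest points of their groups in every panel.

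Nrxn3, one of the presynaptic neurexins, was higher in synaptoneurosomes in both treatments. It was at 13.49, 13.11, 13.66, 13.94 and 14.32 in synaptoneurosomes of mimic rats, against 12.68, 12.64, 12.77, 12.69 and 12.63 in their homogenate. In control rats it was at 13.47, 13.61, 13.81, 14.21 and 14.19 in synaptoneurosomes, against 12.77, 12.86, 12.57, 12.75 and 12.59 in homogenate. The fractions did not overlap in either treatment. The difference was 1.02 ± 0.17 in mimic rats, 2.03-fold (95% interval 1.57 to 2.62), with a limma adjusted p = 0.000142, and 1.15 ± 0.17 in control rats, 2.22-fold (95% interval 1.72 to 2.86), with an adjusted p = 5.48e-05. Errors after a difference are limma's standard errors. Without the 3 arrays that stood apart, which held the highest values of Nrxn3, the difference was 0.87 ± 0.12 and 0.92 ± 0.13 (adjusted p = 2.26e-05 and 4.1e-05), over 4 against 5 and 3 against 5 arrays. The difference of Nrxn3 was exceeded by 1.2% of tested genes in mimic rats and 1.13% in control rats. Its second probe set was dim, with 5.41 ± 0.22 in synaptoneurosome mimic, 5.29 ± 0.24 in synaptoneurosome control, 5.10 ± 0.22 in homogenate mimic and 5.16 ± 0.37 in homogenate control (SD, n = 5), and its groups overlapped. With the mean of both probe sets in place of the brighter one, the difference of Nrxn3 was 0.67 in mimic rats and 0.64 in control rats, and it passed in both.

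Nrxn2, the other neurexin, rose less evenly. Its values were 10.89, 10.75, 10.56, 11.03 and 11.25 in synaptoneurosomes of mimic rats, against 10.47, 10.58, 10.00, 10.19 and 10.31 in homogenate. In control rats they were 11.15, 10.36, 10.63, 11.63 and 11.33, against 10.61, 10.08, 10.08, 10.52 and 10.46. The fractions overlapped in both treatments, in mimic rats only through synaptoneurosome mimic 3 (10.56) and homogenate mimic 2 (10.58). The difference was 0.59 ± 0.20 in mimic rats (limma adjusted p = 0.0252) and 0.67 ± 0.20 in control rats (adjusted p = 0.0131). Without the 3 arrays that stood apart it was 0.50 ± 0.16 (adjusted p = 0.0169) and 0.36 ± 0.18 (adjusted p = 0.105), so the call in control rats did not hold. The call in mimic rats was lost when synaptoneurosome mimic 4 or 5 or homogenate mimic 3 or 4 was left out (adjusted p = 0.0555, 0.0642, 0.0672 and 0.0548).

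Nlgn1, the neuroligin of excitatory synapses, was higher in every synaptoneurosome array than in any homogenate array of its treatment. It was at 12.57, 12.27, 12.49, 12.47 and 13.37 in synaptoneurosomes of mimic rats, against 11.83, 11.79, 11.83, 12.04 and 11.60 in homogenate. In control rats it was at 12.24, 12.09, 12.49, 13.08 and 13.43, against 11.71, 11.57, 11.72, 11.81 and 11.77. Mimic 5, control 4 and control 5 were the highest. The difference was 0.82 ± 0.22 in mimic rats, 1.76-fold (95% interval 1.28 to 2.42), with a limma adjusted p = 0.00574, and 0.95 ± 0.22 in control rats, 1.93-fold (95% interval 1.41 to 2.65), with an adjusted p = 0.0022. Without the 3 arrays it was smaller, 0.63 ± 0.09 and 0.56 ± 0.10, and passed in both (adjusted p = 3.32e-05 and 0.000321).

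Nlgn2, the neuroligin of inhibitory synapses, also separated the fractions completely. Its values were 12.18, 11.52, 11.93, 12.09 and 12.55 in synaptoneurosomes of mimic rats, against 11.02, 11.08, 11.04, 10.86 and 11.45 in homogenate. In control rats they were 12.03, 11.45, 11.58, 12.44 and 12.18, against 11.08, 10.95, 10.83, 11.13 and 11.25. The difference was 0.96 ± 0.19 in mimic rats, 1.95-fold (95% interval 1.49 to 2.56), with a limma adjusted p = 0.000436, and 0.89 ± 0.19 in control rats, 1.85-fold (95% interval 1.41 to 2.42), with an adjusted p = 0.00104. It passed without the 3 arrays as well, at 0.84 ± 0.15 and 0.64 ± 0.16 (adjusted p = 0.000174 and 0.00404).

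Nlgn3, which serves both kinds of synapse, varied most among synaptoneurosome arrays. It was at 13.80, 13.44, 13.79, 14.17 and 15.10 in synaptoneurosomes of mimic rats, against 13.51, 13.49, 13.45, 13.35 and 13.46 in homogenate. In control rats it was at 13.66, 13.31, 13.86, 14.84 and 14.88, against 13.13, 13.28, 13.23, 13.16 and 13.44. The arrays that stood apart reached 14.84 to 15.10, and the other 7 lay between 13.31 and 14.17, where replicate 2 overlapped with homogenate in both treatments. The difference was 0.61 ± 0.29 in mimic rats, which did not pass (limma adjusted p = 0.0958), and 0.86 ± 0.29 in control rats, which did (adjusted p = 0.0227). Without the 3 arrays the differences were 0.35 ± 0.12 and 0.36 ± 0.13, with a spread made smaller by that choice, and both passed (adjusted p = 0.0254 and 0.0368). The call in control rats was lost when control 4 or control 5 alone was left out (adjusted p = 0.0694 and 0.0661), and Nlgn3 passed in mimic rats without synaptoneurosome mimic 2 (0.76, adjusted p = 0.0456).

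Gphn, the inhibitory scaffold, went the other way. It was at 10.29, 10.28, 10.10, 10.06 and 10.55 in synaptoneurosomes of mimic rats, against 11.04, 10.98, 11.04, 11.23 and 10.92 in homogenate. In control rats it was at 10.03, 10.49, 10.12, 10.67 and 10.67, against 10.87, 11.16, 11.17, 11.05 and 10.89. Each synaptoneurosome array lay below each homogenate array. The difference was -0.79 ± 0.12 in mimic rats (limma adjusted p = 6.52e-05) and -0.63 ± 0.12 in control rats (adjusted p = 0.000604), and 5.29% and 6.56% of tested genes had a lower one. The 3 arrays that stood apart held the highest synaptoneurosome values of Gphn, 10.55 to 10.67, against 10.03 to 10.49 in the other 7. Without them Gphn was lower still, at -0.86 ± 0.10 and -0.81 ± 0.11 (adjusted p = 2.72e-06 and 1.64e-05).

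**Figure D2:**
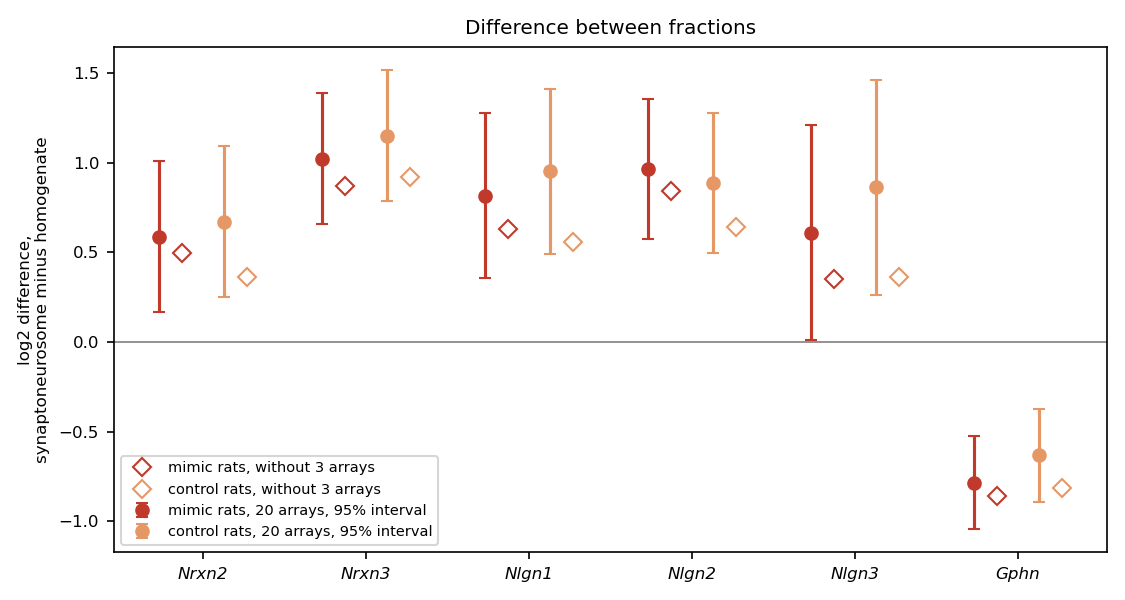
Log2 difference between synaptoneurosomes and homogenate (y axis) of each member (x axis) in mimic rats (red) and control rats (orange); filled points carry 95% intervals from limma with 20 arrays, and open diamonds leave out the 3 arrays that stood apart. Neurexins and neuroligins lie above 0 and Gphn below it, and the diamonds lie lower than the filled points for all 6 members.

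In mimic rats and in control rats, 3 members (Nrxn3, Nlgn1 and Nlgn2) were higher without overlap, as were 7.1% and 6.1% of all tested genes, and 1 member (Gphn) was lower without overlap, as were 25.4% and 17.5%. An exact two-sided permutation test of each of these 4 members gave p = 0.00794 in each treatment, the lowest that 5 against 5 arrays allow. Groups without overlap always give this value, so it adds nothing to the lack of overlap. For Nrxn2 the permutation test gave 0.0159 in mimic rats and 0.0476 in control rats, and for Nlgn3 0.0397 and 0.0159 (24 such tests were run, unadjusted). The 95% intervals of the 5 neurexins and neuroligins overlapped one another in each treatment, so no order among their differences is given.

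Synaptoneurosome and homogenate arrays with the same replicate number deviated together, so they were also compared pair by pair. Nrxn3 was higher in synaptoneurosomes in 5 of 5 pairs of mimic rats (by 0.47 to 1.69) and 5 of 5 of control rats (0.70 to 1.60). The same count held for Nrxn2 (0.17 to 0.94 and 0.28 to 1.11), Nlgn1 (0.43 to 1.77 and 0.52 to 1.66) and Nlgn2 (0.44 to 1.23 and 0.50 to 1.31). Nlgn3 was higher in 4 of 5 pairs of mimic rats (-0.05 to 1.64) and 5 of 5 of control rats (0.03 to 1.68). Gphn was lower in 5 of 5 pairs of both treatments (-1.17 to -0.37 and -1.05 to -0.22). Replicate 2 had the lowest synaptoneurosome value of Nlgn1, Nlgn2 and Nlgn3 in both treatments.

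**Figure D3:**
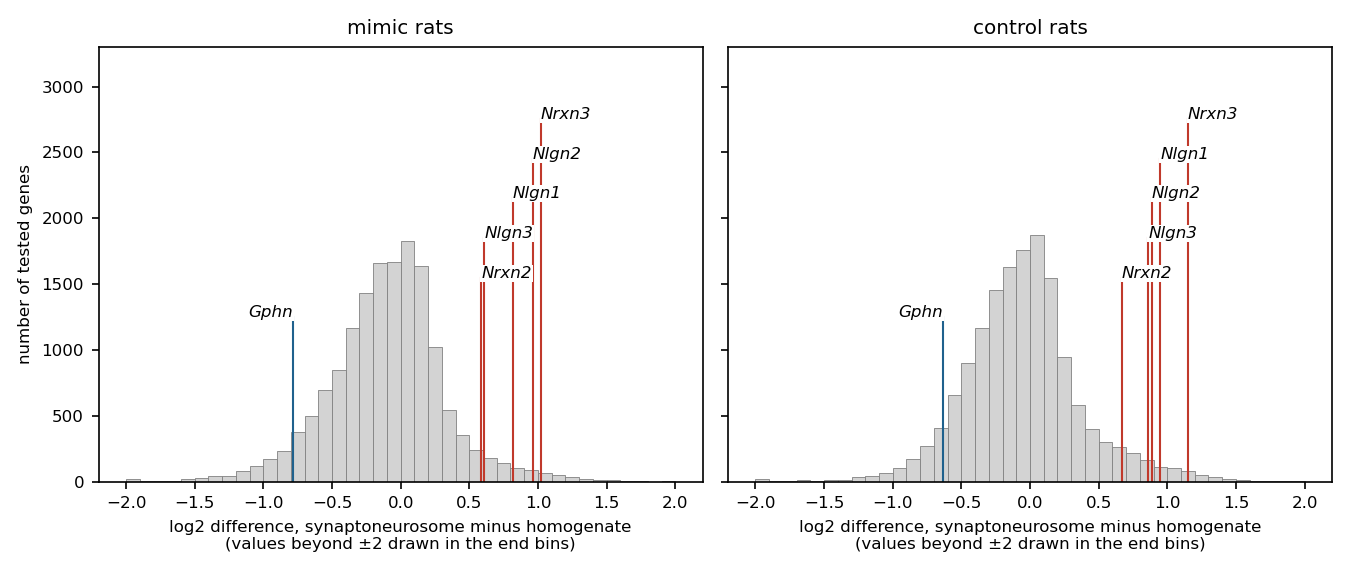
Number of tested genes (y axis) by log2 difference between synaptoneurosomes and homogenate (x axis) in mimic rats and control rats, with the members drawn as lines whose height has no meaning. Neurexins and neuroligins lie in the upper tail of the 15465 genes and Gphn in the lower tail.

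Markers of some cell types moved between the fractions too. Beside their counts stand the shares of all tested genes, 11% higher and 30.8% lower in mimic rats, and 11.8% and 28% in control rats. In bulk RNA, fewer cells or cell fragments of a type and less RNA in each cannot be told apart. Of 7 astrocyte markers 5 rose in synaptoneurosomes of both treatments, with array means of 12.20 to 12.55 in synaptoneurosome mimic, 12.10 to 12.53 in synaptoneurosome control, 11.88 to 12.11 in homogenate mimic and 11.73 to 11.98 in homogenate control. With the 3 arrays left out 4 of 7 rose in mimic rats and 5 of 7 in control rats. Of 8 microglia markers 2 rose in mimic rats and 4 in control rats, with array means of 8.63 to 9.37 in synaptoneurosome mimic, 8.52 to 9.61 in synaptoneurosome control, 8.50 to 9.01 in homogenate mimic and 8.33 to 8.56 in homogenate control. Of 5 tested markers of mural cells 5 fell in mimic rats and 4 in control rats. Without the 3 arrays 2 of 8 microglia markers rose in mimic rats and 3 in control rats. Other lists had few calls: of 6 oligodendrocyte markers 0 rose and 1 fell in each treatment. Without the 3 arrays 2 oligodendrocyte markers rose and 1 fell in each treatment. Of 5 markers of oligodendrocyte precursors 1 rose and 1 fell in each. Of 5 tested choroid plexus markers 0 rose in either treatment, 0 fell in mimic rats and 1 fell in control rats. Of 10 interneuron markers 1 rose and 4 fell in mimic rats, and 2 rose and 0 fell in control rats; without the 3 arrays 2 rose and 6 fell in mimic rats, and 1 rose and 5 fell in control rats. Their array means spanned 8.87 to 10.37 in synaptoneurosome mimic and 8.76 to 10.97 in synaptoneurosome control, against 9.42 to 9.64 in homogenate mimic and 9.11 to 9.61 in homogenate control. The 3 arrays that stood apart had the highest interneuron means of the synaptoneurosome arrays, 10.34 to 10.97 against 8.76 to 9.15 in the other 7, and the lowest means of nuclear RNAs, 11.29 to 12.05 against 12.71 to 13.55. Their microglia means were also the highest, 9.23 to 9.61 against 8.52 to 9.16. Means of choroid plexus markers were 5.14 to 7.89 on these 3 arrays and 5.18 to 5.52 on the other 7. The 7.89 was synaptoneurosome mimic 5 alone, since no synaptoneurosome control array exceeded 5.52. In homogenate these means reached 7.77 in mimic rats and 5.49 in control rats. In 5 of the 6 members all 3 of these arrays lay above the other 7, as in 17.5% of tested genes; the exception was Nlgn2. No marker was at 0, since RMA values have no 0, and the part of these markers in the results was not tested.

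The second question was whether the mimic altered these transcripts, and no member passed in either fraction (limma; 0 of 6, also at an unadjusted p below 0.05). Among all tested genes 0% were called in synaptoneurosomes and 0% in homogenate, with 542 (3.5%) and 268 (1.73%) at an unadjusted p below 0.05. In synaptoneurosomes the difference between mimic and control was -0.12 ± 0.20 for Nrxn2, -0.15 ± 0.17 for Nrxn3, -0.03 ± 0.22 for Nlgn1, 0.12 ± 0.19 for Nlgn2, -0.05 ± 0.29 for Nlgn3 and -0.14 ± 0.12 for Gphn, with adjusted p from 0.933 to 0.979. In homogenate it was -0.04 ± 0.20, -0.03 ± 0.17, 0.10 ± 0.22, 0.04 ± 0.19, 0.20 ± 0.29 and 0.01 ± 0.12 in the same order, each with an adjusted p = 1. In both fractions the mimic and control arrays of each member overlapped. Of all genes, 0.181% were higher and 0.136% lower without overlap in synaptoneurosomes, and 0.491% and 0.155% in homogenate. The arrays that stood apart (control 4, control 5 and mimic 5) were uneven between the treatments. Without them the difference in synaptoneurosomes was 0.09 for Nrxn2, -0.08 for Nrxn3, 0.18 for Nlgn1, 0.24 for Nlgn2, 0.19 for Nlgn3 and -0.03 for Gphn, and no member passed.

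These comparisons bound the change rather than show that there was none. The 95% interval in synaptoneurosomes was narrowest for Gphn (-0.40 to 0.12) and widest for Nlgn3 (-0.65 to 0.55). For Nrxn3 it was -0.52 to 0.21 and for Nlgn2 -0.27 to 0.51. On the linear scale, a fall of Gphn below 0.758-fold or of Nlgn2 below 0.828-fold lies outside its interval. The limma error is shared by both fractions, and in homogenate it is wider than the arrays' own spread: for Nlgn3 the SD was 0.06 in mimic and 0.12 in control rats. Synaptoneurosome arrays varied more, so the intervals and bounds there may be too narrow. In mimic and control rats the SD of Gphn was 0.19 and 0.30 in synaptoneurosomes, against 0.12 and 0.14 in homogenate. For Nlgn2 it was 0.375 and 0.414, against 0.218 and 0.163. Nlgn3 in homogenate averaged 13.45 ± 0.06 in mimic rats and 13.25 ± 0.12 in control rats (SD, n = 5 each), and an exact permutation test of it alone gave p = 0.0159, unadjusted and the smallest of 12 such tests of mimic against control; with the 10 homogenate arrays alone limma gave an adjusted p = 0.969.

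**Figure D4:**
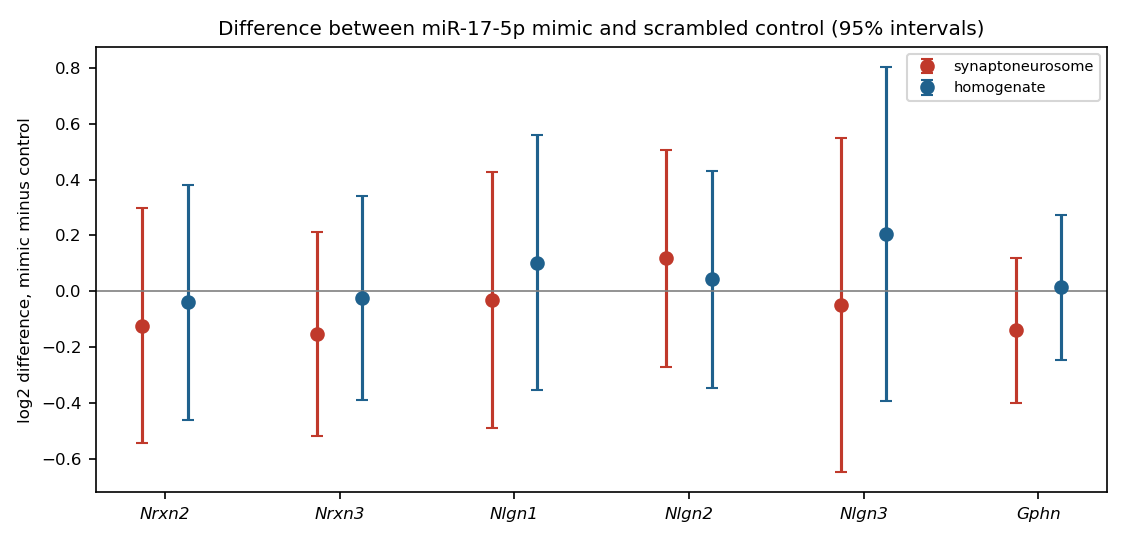
Log2 difference between miR-17-5p mimic and scrambled control (y axis) of each member (x axis) in synaptoneurosomes (red) and homogenate (blue), with 95% intervals from limma. Every interval includes 0, and the widest are those of Nlgn3.

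The mimic effect also did not differ detectably between the fractions. The effect in synaptoneurosomes minus that in homogenate was -0.08 ± 0.28 for Nrxn2, -0.13 ± 0.25 for Nrxn3, -0.13 ± 0.31 for Nlgn1, 0.08 ± 0.26 for Nlgn2, -0.25 ± 0.40 for Nlgn3 and -0.15 ± 0.18 for Gphn. Each had a limma adjusted p = 0.998, with 0 of 6 at an unadjusted p below 0.05. Across all genes 0% were called, and 243 (1.57%) had an unadjusted p below 0.05. The same test says that the difference between the fractions was not shown to differ between mimic and control rats, including for Nlgn3, which passed in control rats alone. By mean level, Nrxn2, Nrxn3, Nlgn1 and Nlgn3 had synaptoneurosome control first and synaptoneurosome mimic second, and Nlgn2 had these in the other order, with homogenate below. For Gphn both homogenate groups came first. Within a fraction, neighbours in this order differed by less than the larger of their SDs, except Nlgn3 in homogenate.

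Genes that act with the members were followed in 8 lists, and 119 genes of them were tested. Their counts are to be read beside the shares of all tested genes, 11% higher and 30.8% lower in mimic rats, and 11.8% and 28% in control rats. Each value below is a log2 difference of synaptoneurosomes over homogenate with its standard error, and each named partner passed in both treatments, with limma adjusted p from 5.05e-07 to 0.023 in mimic rats and from 4.02e-06 to 0.0253 in control rats. Other extracellular partners of neurexins (leucine-rich LRRTM proteins, cerebellins, calsyntenins, latrophilin and others) rose in 2 of 19 cases in mimic rats and 6 of 19 in control rats, and 0 fell. Adgrl1, the adhesion receptor latrophilin-1, had a difference of 1.01 ± 0.11 in mimic rats and 0.95 ± 0.11 in control rats, and Clstn2, a calsyntenin, 0.89 ± 0.28 in mimic rats and 1.07 ± 0.28 in control rats. The median was 0.15 in mimic rats and 0.56 in control rats. When the 3 arrays were left out, a setting added for the lists after seeing the data, 4 rose and 2 fell in mimic rats, 5 rose and 2 fell in control rats, and the medians were -0.03 and 0.01.

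A mixed list of neuroligin regulators, extracellular modifiers and adhesion proteins, some related to neurexins, rose in 7 of 11 cases in each treatment, with 0 lower. The regulators and proteases Mdga1, Adam10, Mmp9 and Bace1 did not pass in control rats (limma adjusted p = 0.064, 0.17, 0.125 and 0.354). The regulator Mdga2 and the adhesion protein Nrcam did (adjusted p = 0.00237 and 5.34e-05). Mmp24, a membrane protease, had a difference of 0.71 ± 0.08 in mimic rats and 0.63 ± 0.08 in control rats. Cntnap1, a contactin-associated protein related to neurexins, had 1.05 ± 0.15 in mimic rats and 1.09 ± 0.15 in control rats. The median was 0.59 in mimic rats and 0.63 in control rats, and 7 of 11 also rose without the 3 arrays.

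Intracellular partners of neurexins were divided, with 3 of 10 higher in each treatment, 4 lower in mimic rats and 3 lower in control rats. Cask, a kinase-like scaffold that binds the neurexin tail, was at 0.27 ± 0.06 in mimic rats and 0.27 ± 0.06 in control rats, and Epb41l1, a protein of the spectrin skeleton, at 0.72 ± 0.19 in mimic rats and 0.60 ± 0.19 in control rats. Lin7a and Apba2, a PDZ protein and an adaptor of presynaptic complexes, fell, with -1.13 ± 0.12 in mimic rats and -0.99 ± 0.12 in control rats for Lin7a and -0.92 ± 0.12 in mimic rats and -0.85 ± 0.12 in control rats for Apba2. The median was -0.02 in mimic rats and -0.13 in control rats, and without the 3 arrays 4 rose and 4 fell in mimic rats, and 5 rose and 3 fell in control rats. Excitatory scaffold partners of neuroligins had 2 of 14 higher and 2 lower in both treatments. The scaffold genes Shank3 (1.49 ± 0.32 in mimic rats and 1.01 ± 0.32 in control rats) and Shank1 (1.21 ± 0.30 in mimic rats and 0.88 ± 0.30 in control rats) rose. Dlg3, a relative of PSD-95, fell (-0.54 ± 0.10 in mimic rats and -0.58 ± 0.10 in control rats), as did Gopc, a Golgi-associated PDZ protein (-0.47 ± 0.08 in mimic rats and -0.47 ± 0.08 in control rats). Of these 14, 8 rose in mimic rats and 7 in control rats without the 3 arrays, and 2 fell in each. The median of all 14 over the 20 arrays was 0.13 in mimic rats and 0.00 in control rats. In control rats the differences of Shank3, Shank1 and Epb41l1 were 1.59, 1.38 and 0.94 without the 3 arrays.

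Partners of gephyrin and neuroligin-2 at inhibitory synapses were divided: 3 of 23 rose and 5 fell in mimic rats, and 9 rose and 5 fell in control rats. Among all tested genes 11% rose and 30.8% fell in mimic rats, and 11.8% and 28% in control rats. The counts in mimic rats were not far from these shares. Gabra2, a GABA-A receptor subunit that binds gephyrin, rose (0.74 ± 0.19 in mimic rats and 1.06 ± 0.19 in control rats), and so did Slitrk3, an adhesion protein of inhibitory synapses (0.77 ± 0.26 in mimic rats and 1.01 ± 0.26 in control rats, and 0.59 in control rats without the 3 arrays). Pfn2, an actin-binding profilin, fell (-1.09 ± 0.11 in mimic rats and -0.91 ± 0.11 in control rats), and so did Dynll1, a dynein light chain that binds gephyrin (-1.55 ± 0.22 in mimic rats and -0.96 ± 0.22 in control rats). The median was 0.25 in mimic rats and 0.31 in control rats. Leaving out the 3 arrays, 8 rose and 5 fell in mimic rats, and 6 rose and 3 fell in control rats. Of the molybdenum cofactor pathway, the other role of gephyrin, 4 of 9 tested genes fell in mimic rats and 3 of 9 in control rats, and 0 rose. They included Nfs1, a cysteine desulfurase (-0.95 ± 0.11 in mimic rats and -0.85 ± 0.11 in control rats), and Xdh, a cofactor-dependent enzyme (-0.42 ± 0.05 in mimic rats and -0.39 ± 0.05 in control rats). The median was -0.24 in mimic rats and -0.03 in control rats. With the 3 arrays left out, 5 fell and 0 rose in mimic rats, and 3 fell and 1 rose in control rats.

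Transcripts of regulators of neurexin splicing, proteins that act in the nucleus, fell in 7 of 11 cases in mimic rats and 9 of 11 in control rats. Of these transcripts 0 rose. Khdrbs1 was at -0.94 ± 0.10 in mimic rats and -0.68 ± 0.10 in control rats and Rbfox1 at -0.74 ± 0.10 in mimic rats and -0.56 ± 0.10 in control rats. The median was -0.46 in mimic rats and -0.54 in control rats, and 8 of 11 fell in each treatment without the 3 arrays. Nuclear RNAs fell in the same arrays, but the site of a protein does not give the site of its transcript. The part of nuclear RNAs in this was not tested. Receptor tyrosine phosphatases of the presynaptic membrane and their postsynaptic partners, a second family of adhesion proteins across the cleft, rose in 14 of 23 cases in mimic rats and 16 of 23 in control rats, and 0 fell. Examples were Slitrk2 (0.91 ± 0.21 in mimic rats and 1.20 ± 0.21 in control rats) and Lrrc4b (0.66 ± 0.11 in mimic rats and 0.72 ± 0.11 in control rats). The median was 0.49 in mimic rats and 0.70 in control rats. Without the 3 arrays 15 rose and 2 fell in mimic rats, and 13 rose and 1 fell in control rats, with smaller medians of 0.34 and 0.36. These shares stand against the 11% and 11.8% of all genes called higher and the 30.8% and 28% called lower. Leaving out the 3 arrays, 2485 of all genes were called higher and 5480 lower in mimic rats, and 2288 higher and 4486 lower in control rats.

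**Figure D5:**
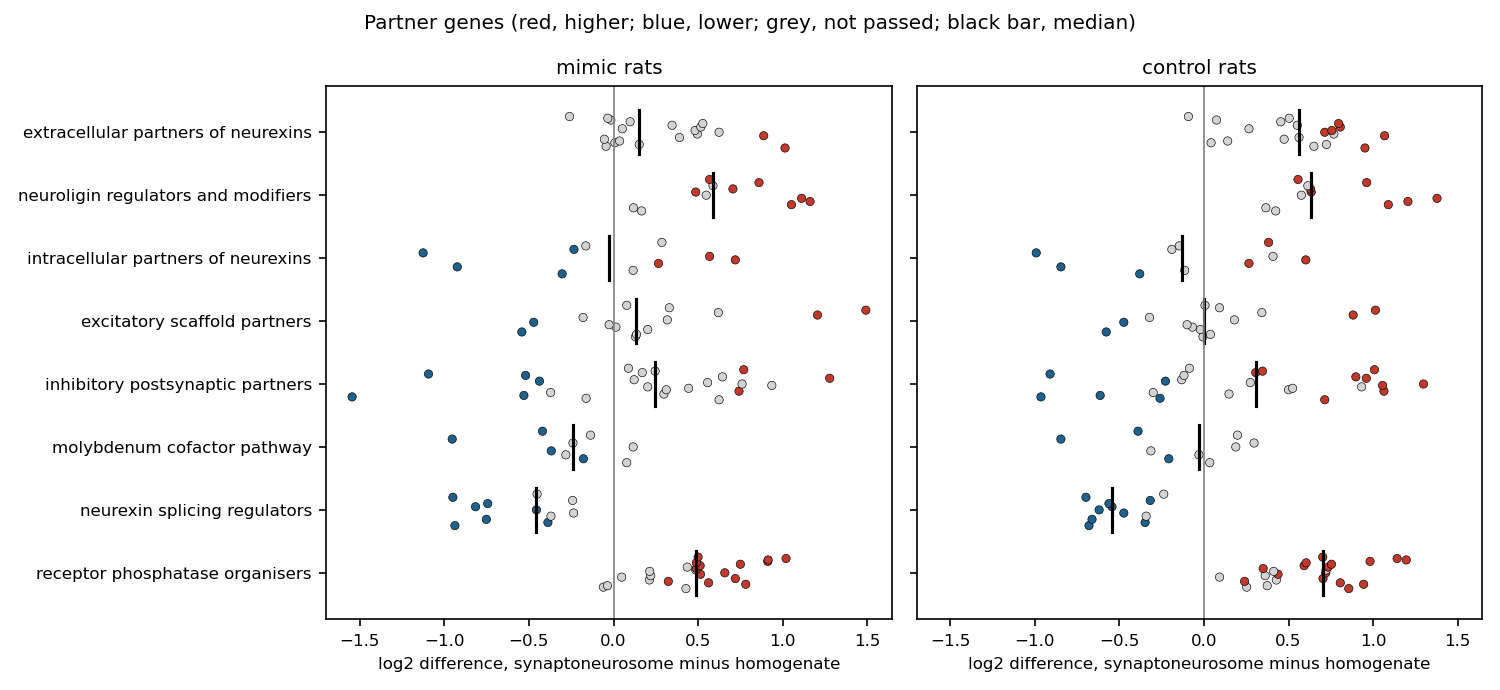
Log2 difference between synaptoneurosomes and homogenate (x axis) of the tested genes of 8 partner lists (rows) in mimic rats and control rats; red and blue points passed as higher and lower, grey points did not pass, and black bars are medians. Splicing regulators lie below 0 and receptor phosphatase organisers mostly above it, while intracellular partners of neurexins lie on both sides.

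None of the 119 partner genes passed between mimic and control in limma, with 5 at an unadjusted p below 0.05 in synaptoneurosomes, 2 in homogenate and 2 for the difference between the fractions.

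The tested genes whose pattern over the 20 arrays lay nearest to each member were found by the root mean square difference of log2 values after each gene's own mean was subtracted. For Nrxn3 they were Cdh10, a cadherin (0.11), and Scn3a, a sodium channel (0.12), and for Nrxn2 Lingo1, a leucine-rich membrane protein (0.16), and the microRNA gene Mir3577 (0.20). Nlgn1 was nearest to Grm5, a metabotropic glutamate receptor (0.12), and Gnptab, an enzyme of lysosomal targeting (0.13). Nlgn2 was nearest to Adgrl1 (0.17) and the adhesion protein gene Lrfn3 (0.18). Nlgn3 was nearest to Mboat7, a lipid acyltransferase (0.13), and Adcy3, an adenylyl cyclase (0.14). Gphn was nearest to Dnaja2, a co-chaperone (0.11), and Wdr75, a ribosome biogenesis factor (0.11). These likenesses rest on the same arrays, including the 3 that stood apart, and are given as a description.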

How the data were processed

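The authors deposited log2 expression values for 68842 probe sets on each array. The submitters' processing notes name RMA and Transcriptome Analysis Console, without versions. RMA subtracts background, brings probe signals toward a common distribution and fits each probe set's probes together, so differences of dim transcripts are understated. The deposited values did not share a single distribution over the 20 arrays. Quantile scaling moved the median difference between the fractions from -0.07 to 0.02. Values were used as deposited. Array medians lay between 5.11 and 5.26, and no 2 arrays of a group were duplicates (smallest mean absolute log2 difference 0.11). The number of arrays limits the precision.

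Platform annotation gave 1 symbol for 23446 probe sets, several for 505 and none here for 44891; gene numbers matched 22077 to RefSeq. The brightest probe set stood for a gene, and the lowest 30% of genes by mean (log2 below 4.97) were left out. No source used here gives the array's genome build, so genes carry no coordinates. limma 3.58.1 in R 4.3.3 fitted 4 group means (16 residual and 2.56 prior degrees of freedom), with two-sided tests, Benjamini-Hochberg adjustment over all tested genes and a threshold of 0.05. The procedure was run on simulated data with independent noise and the same SD of a gene in every group. That setting lacks the shared component and the uneven spread of these arrays, so it cannot show how they affect the calls. Figures used Python 3.11.15 with matplotlib 3.10.9.

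Same-numbered arrays of the fractions deviated together from their group means (r across genes 0.10 to 0.35 in mimic and 0.24 to 0.48 in control rats, each the best match of its homogenate array), so the numbers were taken to pair the fractions, from the data and not from a label. Members, lists and naming rule were chosen with earlier results of these data known. From each list the text names up to 2 genes with the smallest p in each direction in control rats, and for likeness the 2 nearest genes of each member; others are said to be chosen after their values were seen. Alternatives covered samples, filter, scaling, variance model, pairing, probe sets and single arrays.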

Additional observations from a re-analysis of the deposited data

Results flagged for a closer look

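Of 28 sets of 5 arrays (7 probe sets in 4 groups), 2 held an array far from the others; chance gives about 1 in 20. Nlgn1 in synaptoneurosome mimic was at 13.37 on replicate 5, against 12.27 to 12.57 on the other arrays, a gap of 0.727 of the group's range. The dim second probe set of Nrxn3 was at 4.87 on synaptoneurosome control 5, below 5.34 to 5.46 on the other arrays, a gap of 0.797 of the range. Both arrays are among the 3 that stood apart. The brighter probe set of Nrxn3 was at 14.19 on synaptoneurosome control 5, near the top of its group.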

How the results depend on the processing

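In 30 of 30 settings Nrxn3, Nlgn1, Nlgn2 and Gphn passed between the fractions in both treatments with their direction, and no member reversed there. The size of Nrxn3 depended on the probe set: with the mean of both it was 0.67 in mimic rats and 0.64 in control rats, against 1.02 and 1.15. Nrxn2 did not pass in control rats with array weights (0.49, adjusted p = 0.0571) or without the 3 arrays that stood apart (0.36, adjusted p = 0.105), nor in mimic rats with array medians set equal (0.52, adjusted p = 0.0518). Nlgn3 passed in mimic rats with array weights (0.35, adjusted p = 0.0337) and without the 3 arrays (0.35, adjusted p = 0.0254). The cause was not tested. Without the 3 arrays fewer samples were fitted, and the spread was smaller because arrays at its extreme were left out.

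Between mimic and control no member passed in any setting, and small differences changed sign. In synaptoneurosomes they were 0.094 for Nrxn2, 0.177 for Nlgn1 and 0.19 for Nlgn3 without the 3 arrays, and 0.054 for Nlgn1 and 0.004 for Nlgn3 with array weights. In homogenate Gphn was at -0.016 with quantile scaling and -0.004 with array weights. The difference between the fractions was 0.134 for Nrxn2 and 0.075 for Nlgn1 without the 3 arrays, and 0.028 for Nrxn3 with the mean of its probe sets. Leaving out 1 array at a time gave -0.289 to 0.028 for Nrxn2, -0.216 to 0.159 for Nlgn1, -0.006 to 0.252 for Nlgn2 and -0.31 to 0.143 for Nlgn3 in synaptoneurosomes; -0.107 to 0.038 for Nrxn2, -0.061 to 0.012 for Nrxn3, -0.048 to 0.1 for Nlgn2 and -0.033 to 0.049 for Gphn in homogenate; -0.249 to 0.068 for Nrxn2, -0.282 to 0.021 for Nrxn3, -0.318 to 0.057 for Nlgn1 and -0.048 to 0.21 for Nlgn2 for the difference between the fractions.

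Replicate pairs of the fractions as a block changed no call of a member, and genes called numbered 6980 against 6453 in mimic rats and 6747 against 6150 in control rats. Same-numbered mimic and control arrays of synaptoneurosomes also deviated together in replicates 1, 2, 3 and 5 (r = 0.554, 0.589, 0.524 and 0.828). Each was the best match of its mimic array, but replicate 4 was not (r = -0.305). In homogenate r was 0.02 to 0.411. What a shared number stands for between the treatments is not stated. Blocking on the number gave 4 genes against 0 in synaptoneurosomes, none a member. With no filter 4110 genes were higher in mimic rats and 3287 in control rats. In mimic rats 1028 were higher with more dim genes left out, 1069 with medians equal and 2974 with array weights. The median of all genes between the fractions was -0.07 as deposited, 0.02 with quantile scaling and -0.11 with medians equal. Dim signals, such as the second probe set of Nrxn3, limit what can be seen.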

Other observations

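Beyond the genes named by rule, some close partners of gephyrin and neurexins were picked after their values were seen. Glrb, the glycine receptor subunit that binds gephyrin directly, had a difference between synaptoneurosomes and homogenate of 0.76 ± 0.39 in mimic rats (limma adjusted p = 0.125) and 1.30 ± 0.39 in control rats (adjusted p = 0.013), the opposite direction to Gphn. Without the 3 arrays that stood apart Glrb was at 0.38 and 0.65 (adjusted p = 0.0429 and 0.00434). Iqsec3, an exchange factor that binds gephyrin, rose by 1.28 ± 0.28 in mimic rats and 0.96 ± 0.28 in control rats (adjusted p = 0.00113 and 0.01), and by 1.52 and 1.46 without the 3 arrays (adjusted p = 4.72e-08 and 2.83e-07). Insyn2a, a protein of inhibitory synapses, fell (-0.44 ± 0.08 and -0.23 ± 0.08; adjusted p = 0.000316 and 0.0334). Its call in control rats was lost without the 3 arrays, at -0.37 in mimic rats and -0.17 in control rats (adjusted p = 0.000434 and 0.085). Among relatives of neurexins, Cntnap4 rose by 1.11 ± 0.20 and 1.38 ± 0.20 (adjusted p = 0.000259 and 3.93e-05) and Cntnap2 by 1.16 ± 0.18 and 1.21 ± 0.18 (adjusted p = 4.72e-05 and 3.93e-05). With the 3 arrays left out Cntnap4 was at 0.98 and 1.08 and Cntnap2 at 0.98 and 1.06, and both passed in both treatments.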
